A study of Homo sapiens with 8 samples.

Results

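The CCN family is a set of 6 secreted matricellular proteins, which sit in the extracellular matrix and act on cells rather than building the scaffold. The genes CCN1 to CCN6 were taken by symbol, each from the probe set of the deposited log2 table that was annotated to that gene alone. All 6 were measured, each by 1 probe set, among 18417 genes in all. Messenger RNA was measured on Affymetrix human gene arrays in U2OS, an osteosarcoma cell line, with 4 arrays of cells given siRNA against CDK9 and 4 of cells given a non-targeting siRNA, labelled nonspecific. Both groups were grown in the same serum-containing medium, transfected at 10 nM and collected at 72 h, so the controls also carry siRNA and transfection reagent. CDK9 is the P-TEFb kinase that lets paused RNA polymerase II go on to elongation. The family was chosen by the measured difference between these groups, in which CCN1 and CCN2 were higher and CCN3 was lower under CDK9 siRNA, so its own differences between the groups are given here as a description with errors and without a test.

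CCN proteins share an insulin-like growth factor binding module, a von Willebrand factor C module and a thrombospondin module, and all but CCN5 end in a cystine-knot module. They bind integrins, heparan sulfate proteoglycans and growth factors. CCN1 (formerly CYR61) and CCN2 (formerly CTGF) are early response genes that serum, TGF-beta and mechanical tension induce through YAP, TAZ and TEAD factors and through SRF. CCN3 (formerly NOV) has been described as acting against CCN2 in fibrosis. CCN4, CCN5 and CCN6 were first named WISP genes; CCN4 is expressed in bone, CCN5 restrains growth of smooth muscle cells, and loss of CCN6 causes a cartilage disease.

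The arrays fell into a pair and a set of 6. Replicate 1 of both groups, called array set 1, had array medians of 5.85 under CDK9 siRNA and 5.80 under control siRNA, while replicates 2 to 4, array set 2, had medians of 6.99 to 7.03 under CDK9 siRNA and 7.02 to 7.04 under control siRNA. Differences between the siRNA groups below therefore compare arrays within a set, except in an alternative fit without a block. Shifts in level between the sets are given separately. Values of both sets are given for each CCN gene and for some of the list genes. The CDK9 probe set read 8.0, 9.03, 9.09 and 9.04 under CDK9 siRNA, against 9.80, 10.9, 10.9 and 10.9 under control siRNA, a log2 difference of -1.82 ± 0.05 (SE, n = 4 per group). Of the osteoblast-lineage markers, 6 of 8 measured genes had a mean signal above the lowest 30% of all genes (a mean below 6.14 is called dim here), among them RUNX2, COL1A1 and SPARC, while ALPL and IBSP were dim. Of these 8, RUNX2 (-0.60), COL1A1 (-0.51) and MSX2 (-0.56) fell under CDK9 siRNA (limma adjusted p = 0.000344, 0.00110 and 0.00354). They kept their calls under a replicate block, a fit with a term for each same-numbered pair. These are 37.5% of the 8, where 14.2% of all genes were called at an adjusted p under 0.05, 7.47% as lower. Of the markers of other cell types, 1 epithelial gene (lost under the replicate block) and 1 endothelial gene were called higher. The part of RUNX2, COL1A1 and MSX2 in the differences below was not tested. All 4 measured leukocyte markers, 4 of 5 endothelial markers and 3 of 5 epithelial markers were dim. RNA came from whole cultures, in which fewer cells that express a gene and less RNA per cell cannot be told apart.

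CCN1 was higher under CDK9 siRNA in every pair of arrays. Its probe set (7902687) read 10.8, 12.1, 12.1 and 12.2 (in the order of the replicates) under CDK9 siRNA, against 10.6, 11.7, 11.7 and 11.8 under control siRNA. Within each array set the CDK9 siRNA arrays lay above the control arrays with no overlap. CCN1 thus differed by 0.36 ± 0.06 on the log2 scale (SE, n = 4 per group), or 1.29-fold. Array set 1 gave 0.18 and array set 2 gave 0.43 ± 0.05, with 0.42, 0.43 and 0.44 in its same-numbered pairs. Those 3 pairs were thus almost equal, and the difference in the replicate 1 pair was smaller.

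CCN2 was also higher, with the opposite order of the array sets. Its probe set (8129562) read 11.2, 11.8, 11.7 and 11.8 under CDK9 siRNA, against 10.2, 11.3, 11.3 and 11.4 under control siRNA. The groups did not overlap within either set. CCN2 differed by 0.54 ± 0.09 on the log2 scale (SE, n = 4 per group), or 1.46-fold. In array set 1 it was 0.96, or 1.95-fold, and in array set 2 it was 0.41 ± 0.05, or 1.32-fold. The pairs of array set 2 lay between 0.37 and 0.42, so replicate 1 alone carried the larger value. Among all 18417 genes CCN2 ranked 31 from the top by array set 1 and 466 by array set 2, and CCN1 ranked 3905 and 393.

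The stretch around the start of CCN2 is shown because this gene is a standard readout of TEAD factors, and that of CCN6 because it is the other member present in the promoter table and its groups overlapped in array set 2. Both run from 250 bases before to 50 bases after the start of the gene, 5′ to 3′ on the strand of the gene, in RefSeq build GRCh38.p14. CCN2 lies at chr6:131951323-131951622 on the minus strand and CCN6 at chr6:112053854-112054153 on the plus strand. Capitals mark the TEAD motif GGAATG on either strand.
CCN2: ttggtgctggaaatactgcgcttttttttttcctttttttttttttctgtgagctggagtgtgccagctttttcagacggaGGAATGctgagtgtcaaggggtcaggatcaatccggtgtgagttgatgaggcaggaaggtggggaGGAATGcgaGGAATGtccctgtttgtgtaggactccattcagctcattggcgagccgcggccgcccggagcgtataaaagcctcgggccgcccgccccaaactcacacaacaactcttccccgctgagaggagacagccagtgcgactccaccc
CCN6: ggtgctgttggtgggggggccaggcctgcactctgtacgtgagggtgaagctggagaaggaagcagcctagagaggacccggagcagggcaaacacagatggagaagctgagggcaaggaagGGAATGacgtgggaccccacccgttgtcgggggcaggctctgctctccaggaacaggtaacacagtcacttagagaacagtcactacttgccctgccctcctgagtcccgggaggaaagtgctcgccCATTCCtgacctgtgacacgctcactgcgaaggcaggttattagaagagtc

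The CCN2 stretch held 3 copies of GGAATG, all on the strand of the gene, which began 169, 104 and 95 bases upstream of the start. At least 1 copy was present in 14.0% of 35116 promoters of this length, and 3 or more in 0.128%. The CCN6 stretch held 2 copies, 1 beginning 128 bases upstream and 1 on the opposite strand across the start, and 1.37% of promoters held 2 or more. The SMAD motif CAGAC was found 1 time in CCN2, beginning 177 bases upstream and not overlapping a TEAD motif, and 0 times in CCN6, and 45.3% of promoters held it. The AP-1 motif TGANTCA (in 7.71% of promoters), the SRF CArG box (1.29%) and the EGR motif GCGNGGGCG (9.43%) had no match in either stretch on either strand. CCN2 had a TATAAA motif beginning 32 bases upstream, which 11.5% of promoters held, and CCN6 had none. These matches describe letters and not bound sites.

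CCN3 was lower under CDK9 siRNA in every pair of arrays. Its probe set (8148049) read 7.48, 10.76, 10.56 and 10.59 under CDK9 siRNA, against 8.41, 11.87, 12.02 and 11.86 under control siRNA. The groups did not overlap within either array set. CCN3 differed by -1.20 ± 0.08 on the log2 scale (SE, n = 4 per group), so that 43.7% of the control signal was left. It was -0.93 in array set 1, with 52.4% left, and -1.28 ± 0.07 in array set 2, with 41.1% left. Among all genes CCN3 ranked 12 from the bottom over both sets, 76 by array set 1 and 14 by array set 2. The pairs of array set 2 spread more than those of CCN1, at -1.11, -1.46 and -1.27.

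CCN4, CCN5 and CCN6 stayed close to their control levels, and their groups overlapped in array set 2. CCN4 (probe set 8148435) read 5.37, 6.63, 6.45 and 6.47 under CDK9 siRNA, against 5.42, 6.52, 6.54 and 6.54 under control siRNA, a log2 difference of -0.02 with a 95% interval of -0.15 to 0.10. CCN5 (8062864) read 7.04, 7.81, 7.75 and 7.56 under CDK9 siRNA, against 6.84, 7.78, 7.73 and 7.72 under control siRNA, a log2 difference of 0.02 with an interval of -0.13 to 0.18. CCN6 (8121532), a dim gene, read 4.25, 5.57, 5.52 and 5.40 under CDK9 siRNA, against 4.43, 5.58, 5.36 and 5.70 under control siRNA, a log2 difference of -0.08 with an interval of -0.26 to 0.10. These intervals allow the CCN4 signal to be 90.3 to 107% of control, that of CCN5 91.1 to 114% and that of CCN6 83.3 to 107%. The CCN5 pairs ran from 0.20 in replicate 1 to -0.16 in replicate 4, and those of CCN6 from -0.30 in replicate 4 to 0.16 in replicate 3, so neither kept 1 sign.

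**Figure D1:**
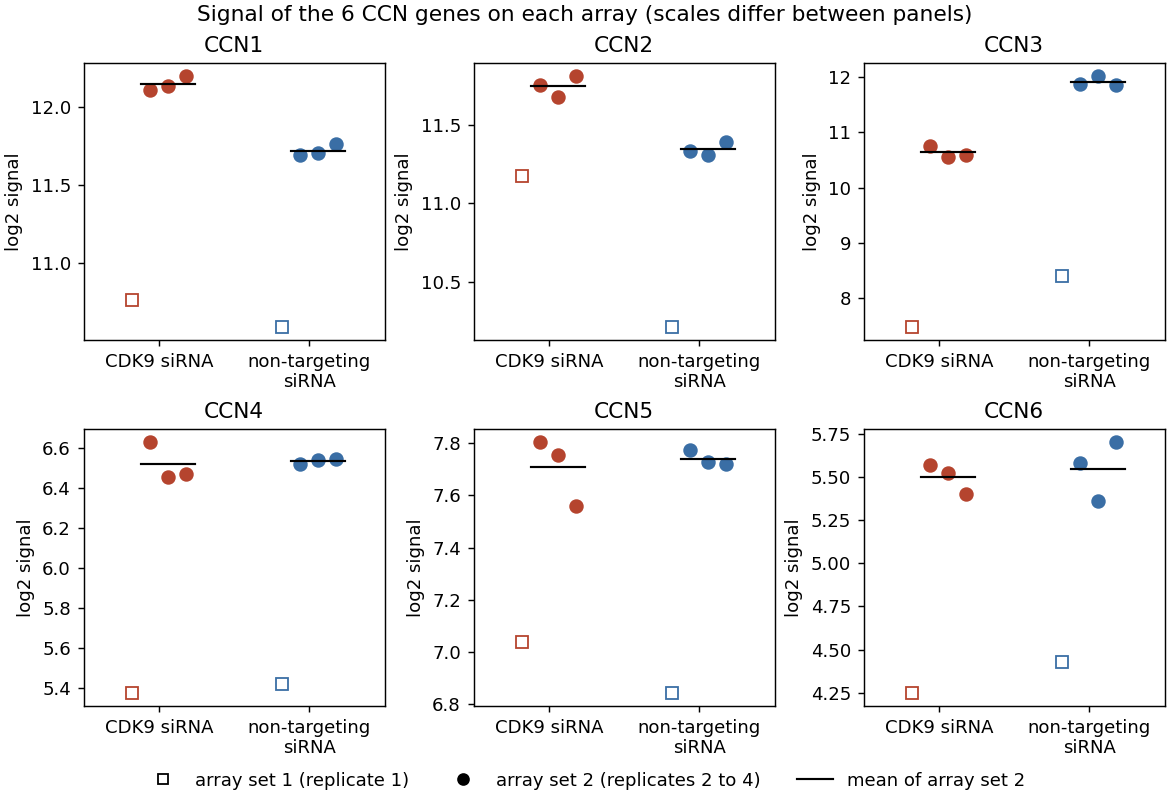
Log2 signal of each CCN gene on each of the 8 arrays, CDK9 siRNA left and non-targeting siRNA right in each panel; open squares are replicate 1 (array set 1), filled circles replicates 2 to 4 (array set 2), and lines the means of array set 2. CCN1 and CCN2 are higher and CCN3 is lower under CDK9 siRNA in both sets, and the circles of CCN4, CCN5 and CCN6 overlap between groups.

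Of the 6 members, 2 lay higher and 1 lower with the groups apart in both array sets, where 25.3% of all genes lay apart in this way, 11.5% higher and 13.8% lower. Nothing is read from that comparison, because the difference itself chose the family.

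**Figure D2:**
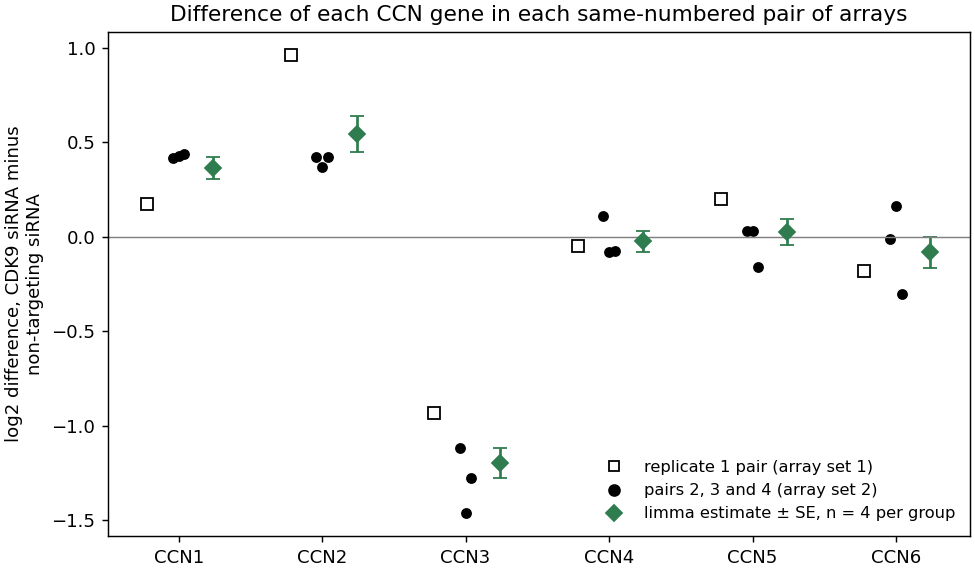
Log2 difference (CDK9 siRNA minus non-targeting siRNA) of each CCN gene; the open square is the replicate 1 pair, circles are pairs 2, 3 and 4, and the diamond with its bar is the limma estimate ± SE (n = 4 per group). The square of CCN2 at 0.96 lies above its circles (0.37 to 0.42), and that of CCN1 at 0.18 lies below its circles (0.42 to 0.44).

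Whether the response differed between the array sets is a contrast that did not choose the family, and it was tested. For CCN2 the difference in set 1 minus that in set 2 was 0.56, with an unadjusted p of 0.0011 and a limma adjusted p of 0.0506 over all genes, just above the threshold of 0.05, so it did not pass. The limma adjusted p was 0.0487 after median centring and 0.0177 with dim genes left out. It was 0.0788 after renewed quantile normalization and 0.0512 with the mean of probe sets. The call for CCN2 thus turns on these settings. The values of CCN1 (-0.25, adjusted p = 0.199) and CCN3 (0.35, adjusted p = 0.220) did not pass, nor did those of CCN4 (-0.03, adjusted p = 0.907), CCN5 (0.23, adjusted p = 0.386) and CCN6 (-0.13, adjusted p = 0.731). Over all genes, 395 passed this test, or 2.14%. Array set 1 holds 1 array of each group, so the spread in this test comes from array set 2.

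CCN3 stood apart from the rest of the family in its level between array sets, in both groups. The mean of array set 2 minus the value of array set 1 was 3.16 for CCN3 under CDK9 siRNA and 3.51 under control siRNA. Over all genes the median of this shift was 1.05 under CDK9 siRNA and 1.07 under control siRNA, and 90% of genes lay between 0.45 and 1.88 and between 0.45 and 1.78. CCN3 ranked 36 of 18417 from the top under CDK9 siRNA and 15 under control siRNA. Under control siRNA the other members lay near the median, with CCN1 at 1.13, CCN2 at 1.13, CCN4 at 1.11, CCN6 at 1.12 and CCN5 at 0.90. Under CDK9 siRNA they ranged from 0.58 for CCN2 to 1.38 for CCN1. What sets the sets apart (culture, hybridisation or processing) is not stated in the sources used here and cannot be told apart.

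**Figure D3:**
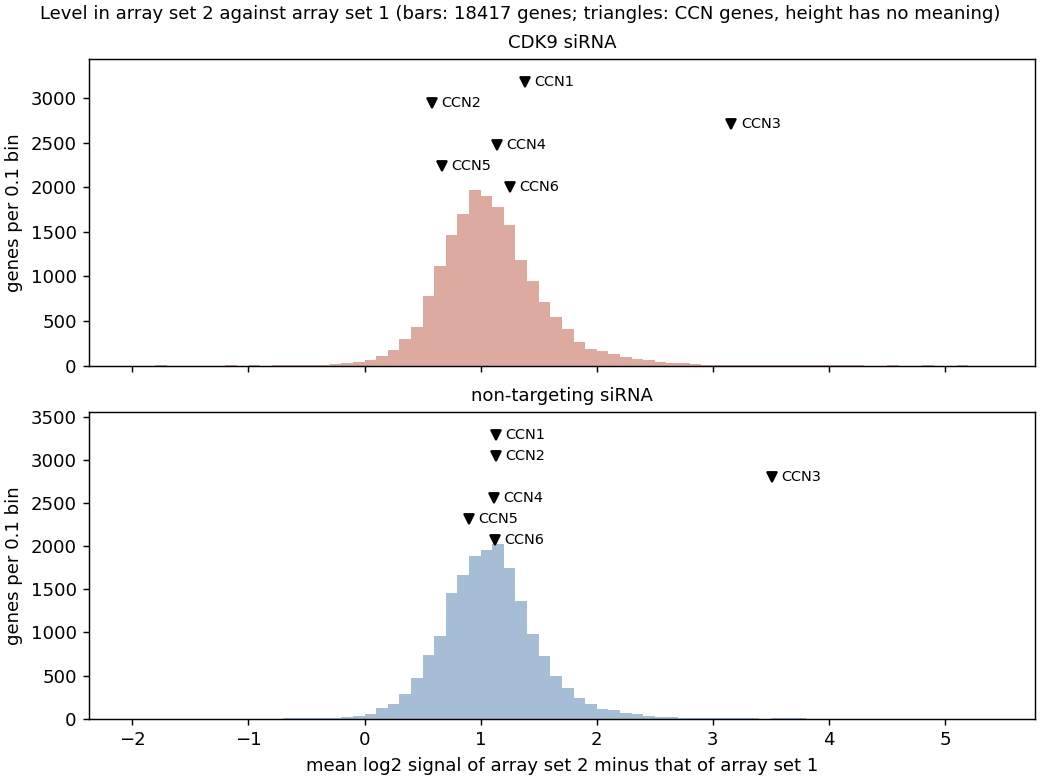
Histograms of the mean log2 signal of array set 2 minus that of array set 1 for 18417 genes in bins of 0.1, CDK9 siRNA above and non-targeting siRNA below; triangles mark the CCN genes, and their height has no meaning. CCN3 lies at 3.16 and 3.51, far to the right of the medians of 1.05 and 1.07, while the other members lie within the bulk.

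The genes most like CCN1, CCN2 and CCN3 were found by the root mean square difference between log2 profiles over the 8 arrays, after each gene was centred within each array set. Since they were picked for likeness, their differences are given without a test. Nearest to CCN1 were TXNRD1 (thioredoxin reductase), ZNF699, ARHGAP31 and PLSCR1 (a phospholipid scramblase), which lay 0.03 from it on average, with log2 differences of 0.32 to 0.40. Nearest to CCN2 were CHRNB1 (an acetylcholine receptor subunit), NIPAL1, PURB and NETO1, at distances of 0.05 to 0.06 and with larger differences in array set 1 (0.76 to 1.04) than in array set 2 (0.33 to 0.51). Nearest to CCN3 were 2 fibrillar collagen genes, COL3A1 at 0.06 and COL5A2 at 0.07, followed by RCAN2, a calcineurin regulator, at 0.09 and A2M, a protease inhibitor, at 0.13. Their log2 differences were -1.27, -1.30, -1.07 and -1.01. CCN1 and CCN2 lay 0.20 from each other. CCN2 ranked 7078 among the genes nearest to CCN1, and CCN1 ranked 656 among those nearest to CCN2.

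Genes related to the family by function, regulation or a shared module were described through 9 lists of 144 genes, of which 135 were measured. Under CDK9 siRNA 14 rose and 22 fell at a limma adjusted p under 0.05 over all genes, 26.7% of those measured, against 14.2% of all genes (6.73% higher and 7.47% lower). Under the replicate block, 26 of the 36 kept their call, where 9.17% of all genes were called. The median log2 difference over all genes was -0.00. The lists were chosen with earlier results of these data known. Dim genes are 30% of all genes, but 0 of 19 measured regulators and 1 of 20 YAP and TAZ targets were dim. With dim genes left out, 3070 genes over all were called from fewer tested. The share over all genes thus depends on signal level, and nothing is read from the higher share in the lists.

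Of the regulators of CCN1 and CCN2 transcription, 3 of 19 measured genes rose and 6 fell (47.4%, against 14.2% of all genes), with a median of -0.06. FOS and JUN, which form AP-1, fell by 1.41 and 0.52, and EGR1, an early growth response factor, fell by 0.95 (SE 0.16, 0.05 and 0.08, limma adjusted p = 0.000693, 0.000488 and 0.000209). For FOS the sets gave -0.67 (set 1) and -1.66 (set 2). TEAD2, a DNA-binding partner of YAP, fell by 0.51 ± 0.05 (adjusted p = 0.000427), and LATS2, the kinase that restrains YAP, fell by 0.30 (adjusted p = 0.00902). YAP1 itself differed by -0.09 (adjusted p = 0.328) and WWTR1, which encodes TAZ, by -0.21 (0.189). TEAD1 differed by 0.11 (0.193) and SRF by -0.02 (0.940), and none of these genes passed. WWTR1 and SRF changed sign between the sets, with 0.19 and 0.35 in set 1 and -0.34 and -0.14 in set 2. In a fit of array set 2 alone, WWTR1 was called lower (limma adjusted p = 0.0102) and SRF was not called (0.196). TEAD3 (-0.17), SMAD4 (0.23), ETS1 (0.21) and HIF1A (0.18) passed narrowly and lost their calls under the replicate block (adjusted p = 0.104, 0.0754, 0.0641 and 0.0969). That block leaves 0 higher and 5 lower, where it called 9.17% of all genes. TEAD3 and HIF1A also lost their calls without any 1 of the 8 arrays (adjusted p up to 0.125 and 0.119). SMAD4 lost its call without any 1 of replicates 2 to 4 (up to 0.103), and ETS1 without replicate 3 or 4 of either group (up to 0.0733).

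Among receptors 3 of 14 rose and 2 fell (35.7%, against 14.2% of all genes), and the median was 0.02. ITGA6, the alpha subunit of a laminin receptor that CCN1 also binds, read 9.99, 10.3, 10.4 and 10.3 under CDK9 siRNA, against 8.47, 9.37, 9.35 and 9.34 under control siRNA. It rose 2.14-fold (SE 0.09 on the log2 scale, limma adjusted p = 0.000246). ITGB3, which pairs with ITGAV in the vitronectin receptor bound by CCN1, CCN2 and CCN3, rose 1.66-fold (log2 0.73 ± 0.07 SE, adjusted p = 0.000303), while ITGAV differed by -0.16 (0.159) and the common partner ITGB1 by 0.05 (0.599), and neither passed. LRP1, an endocytic receptor that binds CCN2, fell by 0.48 ± 0.08 (adjusted p = 0.00456), and NOTCH1, to which CCN3 can bind, fell by 0.31 ± 0.05 (adjusted p = 0.00520). IGF2R rose by 0.23, a call lost under the replicate block (adjusted p = 0.0802) and without replicate 2 or 4 of the CDK9 siRNA group or any 1 of control replicates 2 to 4 (up to 0.0789).

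Growth factors that CCN proteins bind or modulate had 0 of 11 members higher and 3 lower (27.3%, against 14.2% of all genes, 7.47% as lower), with a median of -0.10. TGFB1, which induces CCN2, fell by 0.35 ± 0.05 (limma adjusted p = 0.00160). BMP4, which CCN2 can bind, fell by 0.97 ± 0.23 (adjusted p = 0.0233, and 0.0615 under the replicate block), and the sets gave -2.15 (set 1) and -0.57 (set 2). BMP7 fell by 0.24 (adjusted p = 0.0365, and 0.0773 under that block), a call lost without any 1 of replicates 2 to 4 of either group (up to 0.104). TGFB2 (-0.12, adjusted p = 0.476) and VEGFA (-0.10, adjusted p = 0.281) did not pass. TGFB2 differed by -0.56 in set 1 and by 0.03 in set 2.

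Other targets of the factors that drive CCN1 and CCN2 had calls in both directions. In a YAP and TAZ signature without CCN1 and CCN2, 2 of 20 genes rose and 2 fell (20%, near the 14.2% of all genes), with a median of -0.00. CRIM1, a transmembrane protein with von Willebrand factor C repeats, rose by 0.46 ± 0.06 (limma adjusted p = 0.00141) and FJX1 by 0.41 ± 0.06 (adjusted p = 0.00288). MYOF, which encodes myoferlin, fell by 0.91 ± 0.07 (adjusted p = 0.000161) and LATS2 as above. ANKRD1, a common YAP readout, differed by 0.13 (adjusted p = 0.0982), AMOTL2 by -0.08 (0.357) and AXL by 0.09 (0.283), and none passed. Of 18 cytoskeletal targets of MRTF and SRF, 3 rose and 2 fell (27.8%, against 14.2% of all genes), with a median of 0.09. The smooth muscle genes TAGLN (0.88 ± 0.08, adjusted p = 0.000344), CNN1 (0.38 ± 0.08, 0.0114) and CALD1 (0.30 ± 0.05, 0.00326) rose, and the tropomyosin TPM2 fell by 0.55 ± 0.06 (0.000517). For CNN1 the sets gave 0.12 (set 1) and 0.47 (set 2). ZYX fell by 0.19 (adjusted p = 0.0450), a call lost under the replicate block (0.111) and without any 1 of replicates 2 to 4 of either group (up to 0.144). ACTA2 differed by 0.13 (0.147) and VCL by 0.11 (0.228), and neither passed.

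**Figure D4:**
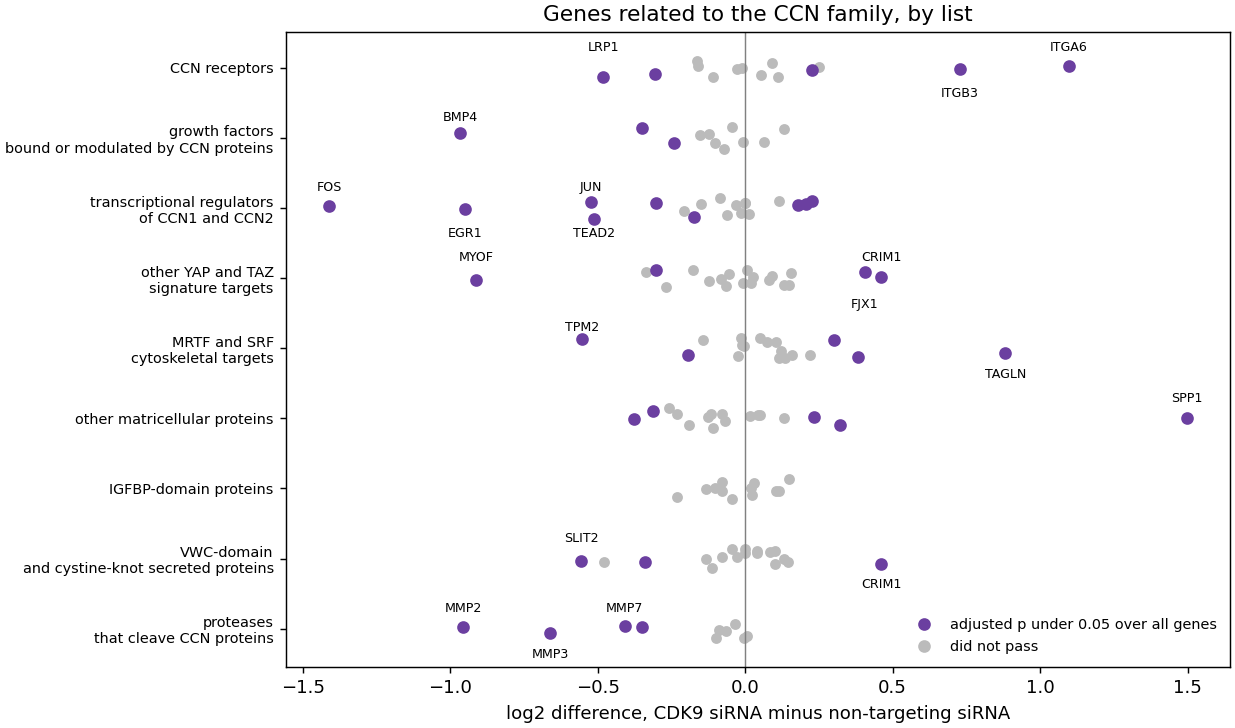
Log2 difference (CDK9 siRNA minus non-targeting siRNA) of each measured gene of the 9 lists, with genes at a limma adjusted p under 0.05 in purple, others in grey, and vertical scatter for display only. Receptors and other matricellular genes have calls on both sides of 0, while all calls among growth factors and proteases lie below 0 and no IGFBP-domain gene passed.

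Of the other matricellular genes, 3 of 17 rose and 2 fell (29.4%, against 14.2% of all genes), and the median was -0.08. SPP1, which encodes osteopontin, rose 2.82-fold (SE 0.08 on the log2 scale, limma adjusted p = 3.16e-05), and THBS3 (0.32) and TGFBI (0.23) rose by less. THBS1, thrombospondin 1, fell by 0.31 ± 0.07 (adjusted p = 0.0185), and FBLN5, which takes part in elastic fibre assembly, fell by 0.38 ± 0.07 (0.00620). For THBS1 the sets gave -0.08 (set 1) and -0.39 (set 2). TGFBI lost its call without replicate 4 of the CDK9 siRNA group or 2 or 3 of the controls (adjusted p up to 0.0745), THBS1 without replicate 3 of the CDK9 siRNA group or 3 or 4 of the controls (up to 0.0617), and THBS3 without replicate 3 or 4 of the CDK9 siRNA group or 2 or 3 of the controls (up to 0.0934). SPARC (-0.23, adjusted p = 0.178), TNC (-0.26, 0.156) and POSTN (-0.11, 0.478, dim) did not pass. TNC differed by 0.21 in set 1 and by -0.41 in set 2, and array set 2 alone called it lower (limma adjusted p = 0.00822).

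Proteins that share a module with the family were taken in 2 lists. Of 12 measured IGFBP-domain genes, 0 passed in limma over all genes and 1 had an unadjusted p under 0.05. The smallest adjusted p was that of IGFBP5 (-0.23, adjusted p = 0.0590), and 1 gene passed after quantile normalization or with dim genes left out. Of 18 genes with von Willebrand factor C or cystine-knot modules, 1 rose and 2 fell (16.7%, near the 14.2% of all genes), with a median of -0.00. These were CRIM1 as above, the axon guidance ligand SLIT2 (-0.56 ± 0.13, adjusted p = 0.0186, -1.14 in set 1 and -0.36 in set 2) and the secreted protein NELL2 (-0.34 ± 0.05, 0.00406). The BMP antagonist GREM1 differed by -0.00 (0.989, dim).

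Among proteases that cleave CCN proteins, 0 of 10 rose and 4 fell (40%, against 14.2% of all genes, 7.47% as lower), with a median of -0.09. MMP2, a gelatinase, read 7.11, 9.01, 8.88 and 9.07 under CDK9 siRNA, against 8.02, 10.0, 9.97 and 9.91 under control siRNA, and fell by 0.96 ± 0.06 (limma adjusted p = 4.45e-05). MMP7 (-0.41 ± 0.07, 0.00566, dim) fell as well. MMP3 (-0.66, 0.0240) and MMP13 (-0.35, 0.0392) lost their calls under the replicate block (adjusted p = 0.0587 and 0.0755). In set 1 alone MMP3 and MMP13 differed by 0.04 and -0.00, and in set 2 by -0.89 and -0.47. MMP3 also lost its call without replicate 2 or 3 of the CDK9 siRNA group or any 1 of control replicates 2 to 4 (up to 0.0722), and MMP13 without any 1 of replicates 2 to 4 of either group (up to 0.111). MMP14 did not pass (-0.10, adjusted p = 0.275).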

How the data were processed

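Total RNA of 8 cultures of U2OS cells was measured on Affymetrix human gene arrays. The authors deposited log2 expression values of 33297 probe sets, with no missing value. The submitters' processing notes name build hg19, limma, Affymetrix Expression Console 1.1 and RMA (a background correction, quantile normalization and probe summary). Their roles, and the arrays that shared a normalization, are not stated in these sources. The design text calls the replicates biological, and 0 array pairs held mostly identical values. The precision is limited by the number of arrays.

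By platform annotation, 19460 probe sets had 1 symbol, 1754 had several and 12083 had none. Of the first, 19429 matched by Entrez identifier RefSeq genes of GRCh38.p14, which changed 0 symbols. The probe set with the highest mean was kept for each of 18417 genes. Promoter sequences came from RefSeq, where 2 of 6 members were matched.

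The group difference was fitted with the array set as a block in limma 3.58.1 (R 4.3.3) by lmFit and eBayes. Tests were two-sided, with p adjusted over all genes by Benjamini-Hochberg and a threshold of 0.05. Tables came from pandas 2.3.3 and numpy 2.4.6 in Python 3.11.15, and plots from matplotlib 3.10.9. In simulated data for this comparison with 18417 genes, 24% of changes of 1.2-fold, 82% of 1.5-fold, 94% of 2-fold and 100% of 4-fold were recovered, 50 genes each. The other 18217 genes were left unchanged there, whereas 2615 genes were called in the data. The adjusted threshold thus differs, and these shares may not hold for the data. Deviations from group means correlated within same-numbered pairs at 0.822, 0.537, 0.494 and 0.607, above the limit of 0.1. These deviations still held the difference between array sets, which both groups share. The correlations therefore cannot show whether replicates 2 to 4 are paired by number. The numbers were treated as pairs only in an alternative fit with the replicate number as a block. Its calls are given where they differ. The other alternatives were no block, array set 2 alone, median centring, renewed quantile normalization, a filter on dim genes, the mean of probe sets and leaving out each array.

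The members and lists were chosen with earlier results of these data known. Genes named are CDK9, the members, list genes that passed (up to 8 a list), list genes needed to describe a role, and the 4 genes nearest in profile to CCN1, CCN2 and CCN3. List genes with no probe set of a single symbol (9 of 144) were not analysed here.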

Additional observations from a re-analysis of the deposited data

Results flagged for a closer look

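In groups of 4 arrays, the gap between replicate 1 and its nearest neighbour took up most of the group's range for many values, and each ratio below exceeds Dixon's 95% critical value for 4 values. Chance flags about 1 in 20 such groups. For CDK9 the ratio was 0.949 under CDK9 siRNA and 0.966 under control siRNA, and for CCN1 it was 0.937 and 0.942. CCN2 was flagged in the controls at 0.928, and CCN5 in the controls at 0.939. CCN4 was flagged at 0.859 under CDK9 siRNA and 0.978 under control siRNA, and CCN6 at 0.875 under CDK9 siRNA. CCN3 had 0.941 under CDK9 siRNA and 0.955 under control siRNA. In each case replicate 1, the array of set 1, was the low one, and the whole of that set lay on a lower scale. After each array's median was subtracted, 3 of 14 groups were still flagged. They were CCN3 under CDK9 siRNA (0.928), CCN3 under control siRNA (0.925) and CCN4 under control siRNA (0.869). For CCN3 replicate 1 was still the low array, whereas for CCN4 it was now the high one.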

How the results depend on the processing

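The differences of CCN3, CCN4, CCN5 and CCN6 moved by less than 1 SD of array set 2 under no block, the replicate block, array set 2 alone, median centring, quantile normalization and the mean of probe sets. With dim genes left out, CCN6 has no value. In array set 2 alone CCN1 was 0.43 and CCN2 was 0.41. Leaving out 1 array gave 0.33 to 0.43 for CCN1, 0.41 to 0.59 for CCN2, -1.28 to -1.14 for CCN3, -0.07 to -0.00 for CCN4, -0.03 to 0.09 for CCN5 and -0.16 to -0.03 for CCN6. Leaving out either replicate 1 array equals array set 2 alone. The set 1 minus set 2 value of CCN2 passed with median centring (0.52) and with dim genes left out (0.56, fewer genes tested). It did not pass with renewed quantile normalization (0.52) or the mean of probe sets (0.56). Without a block, limma called 0 genes over all genes and in each of the 9 lists (51 genes at an unadjusted p under 0.05), since the set difference enters the residual. With the replicate number as a block, the calls were 1688 over all genes (2615 with the array set as a block), 1 growth factor, 5 regulators and 2 proteases. Of the IGFBP-domain genes 1 was called after quantile normalization and 1 with dim genes left out, and the cause was not tested. Leaving out 1 array gave 1520 (without control replicate 3) to 3331 calls over all genes, 5 to 8 regulators, 2 to 6 other matricellular genes, 2 to 4 proteases, 4 to 6 receptors, 2 to 4 growth factors, 4 to 5 YAP and TAZ targets, 4 to 7 cytoskeletal targets, 3 to 4 genes with von Willebrand factor C or cystine-knot modules and 0 IGFBP-domain genes. The number of arrays (8) limits precision, and array set 1 gives no spread of its own.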

Other observations

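Several genes beside CCN3 had large shifts in level between the array sets. Genes were ordered by the smaller of their shifts (mean of array set 2 minus array set 1) in the CDK9 siRNA and control groups, and those named here were chosen after their values were seen. CCN3 ranked 12 in that order. IGFBP5, an IGF-binding protein that also carries the module shared with the CCN family, ranked 2, at 4.11 under CDK9 siRNA and 3.80 under control siRNA. HAS2, a hyaluronan synthase, had 3.61 under CDK9 siRNA and 4.43 under control siRNA. EGR1 had 3.27 under CDK9 siRNA and 3.54 under control siRNA, and the osteoblast regulator RUNX2 had 3.31 and 3.12. In the lists described above, FOS had 2.89 under CDK9 siRNA and 3.87 under control siRNA, and ITGB3 had 2.57 and 2.76. MMP3 went the other way, with -1.75 under CDK9 siRNA and -0.82 under control siRNA. Of the 4 genes nearest to CCN3 in profile, RCAN2 had a like shift (2.74 under CDK9 siRNA and 3.34 under control siRNA). In the same order COL3A1 had 1.89 and 2.35, A2M had 1.91 and 2.10, and COL5A2 had 1.25 and 1.48. The profiles were centred within sets, so that likeness did not use these shifts.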
